A study of Homo sapiens with 12 samples.

Results

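The HOX cluster genes encode the homeobox transcription factors that lie side by side in 4 genomic clusters, HOXA, HOXB, HOXC and HOXD. The members were all protein-coding genes of the count table whose symbol is HOXA, HOXB, HOXC or HOXD followed only by digits. That rule gave 39 of the 48162 gene identifiers, 11 in HOXA, 10 in HOXB, 9 in HOXC and 9 in HOXD. The members were thus chosen by symbol and biotype and by no measured value, while the family itself was picked for description with earlier results of these libraries known. The levels were measured by RNA sequencing in T84 cells, an established line derived from a human colon carcinoma that serves as a model of the gut lining. The cells had reached confluence in culture plates when their medium was exchanged for Hanks buffered saline, a salt solution without serum, at pH 6.0 or pH 7.4. There were 4 groups of 3 libraries each: pH 6.0 for 3 h, pH 7.4 for 3 h, pH 6.0 for 6 h and pH 7.4 for 6 h. All 4 groups spent their hours in saline, and no group that stayed in culture medium was analysed here, so each pH effect is relative to neutral saline of the same duration. All libraries came from this single cell line.

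In the embryo HOX genes are switched on in the order in which they lie along a cluster, from the low-numbered 3′ genes that pattern the head and anterior trunk to the high-numbered 5′ genes that pattern the tail end, the hindgut included. Genes with the same number in different clusters are paralogues that arose by duplication of an ancestral cluster. Adult epithelia keep part of this pattern, and the colon is known for expressing HOX genes of several clusters. HOX proteins bind DNA together with the TALE homeodomain proteins of the PBX, MEIS and PKNOX families. Polycomb and Trithorax complexes keep HOX genes off or on, retinoic acid and the caudal factors CDX1 and CDX2 act on the clusters from upstream, and many antisense RNAs are made within them.

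Levels are given as CPM, counts scaled to a common library total with TMM factors, and between genes as CPM per kb of the gene length behind the deposited RPKM values. Each of the 39 members had at least 1 read in some library. With expressed taken as a mean of at least 1 CPM in at least 1 group, 25 members were expressed: 10 of 11 in HOXA, 8 of 10 in HOXB, 5 of 9 in HOXC and 2 of 9 in HOXD. At 0.5 CPM the count was 28, and at 5 CPM it was 19. Just inside the limit lay HOXC8, with a highest group mean of 1.48 CPM, and HOXD1, with 1.53 CPM. Just outside it lay HOXB2 at 0.723 CPM.

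The highest level per length belonged to HOXB9, a gene of trunk patterning, with 53.6 CPM per kb at pH 6.0 and 47.4 CPM per kb at pH 7.4 after 3 h, and 49.3 CPM per kb at pH 6.0 and 55.1 CPM per kb at pH 7.4 after 6 h. HOXB8 followed in the pH 7.4 libraries of 6 h with 40.7 CPM per kb, then HOXA5 with 17.5 CPM per kb, HOXB7 with 17.5 CPM per kb and HOXA9 with 16.6 CPM per kb. HOXA5, HOXB7 and HOXA9 were not apart beyond their spread, with SDs of 1.77, 0.895 and 0.911 CPM per kb (n = 3). In the same libraries HOXB6 had 14 CPM per kb, HOXB3 13.7 CPM per kb and HOXA13 13.4 CPM per kb, also within the spread of HOXB6 (SD 2.08 CPM per kb). The middle of the range held HOXA3 with 11.2 CPM per kb, HOXA6 with 10.6 CPM per kb, HOXA10 with 9.13 CPM per kb, HOXB5 with 8.98 CPM per kb, HOXC11 with 8.33 CPM per kb and HOXC6 with 5.82 CPM per kb. Lower still were HOXC4 at 4.34 CPM per kb, HOXA7 at 3.67 CPM per kb, HOXB4 at 3.51 CPM per kb, HOXC5 at 2.48 CPM per kb, HOXA2 at 1.84 CPM per kb, HOXA11 at 1.83 CPM per kb and HOXB13 at 1.06 CPM per kb. The remaining members that passed the expression filter, HOXA4, HOXD3, HOXD1, HOXC8 and HOXB2 among them, were all under 1 CPM per kb there. The largest of the standard deviations behind these means (n = 3) was 3.81 CPM per kb, for HOXB8.

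Another 12 members did not pass edgeR's default filter on low counts and were not tested in the main fit: HOXB1, HOXC9, HOXC10, HOXC12, HOXC13, HOXD4, HOXD8, HOXD9, HOXD10, HOXD11, HOXD12 and HOXD13. Over all 12 libraries together they had between 2 reads for HOXB1 and 73 reads for HOXC9. The best covered of them had highest group means of 0.528 CPM for HOXC9, 0.461 CPM for HOXD8 and 0.428 CPM for HOXD4. The 5′ end of HOXD, from HOXD8 to HOXD13, gave only scattered reads, while the 5′ genes HOXA13, HOXC11 and HOXB13 were expressed. HOXC9 had reads in all 12 libraries, and HOXD4, HOXD8, HOXD9 and HOXD10 each in 10, so these were detected at a low level. Where a member had 0 reads in a library of the depths below, up to 3 reads remain possible, so absence is not shown.

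**Figure D1:**
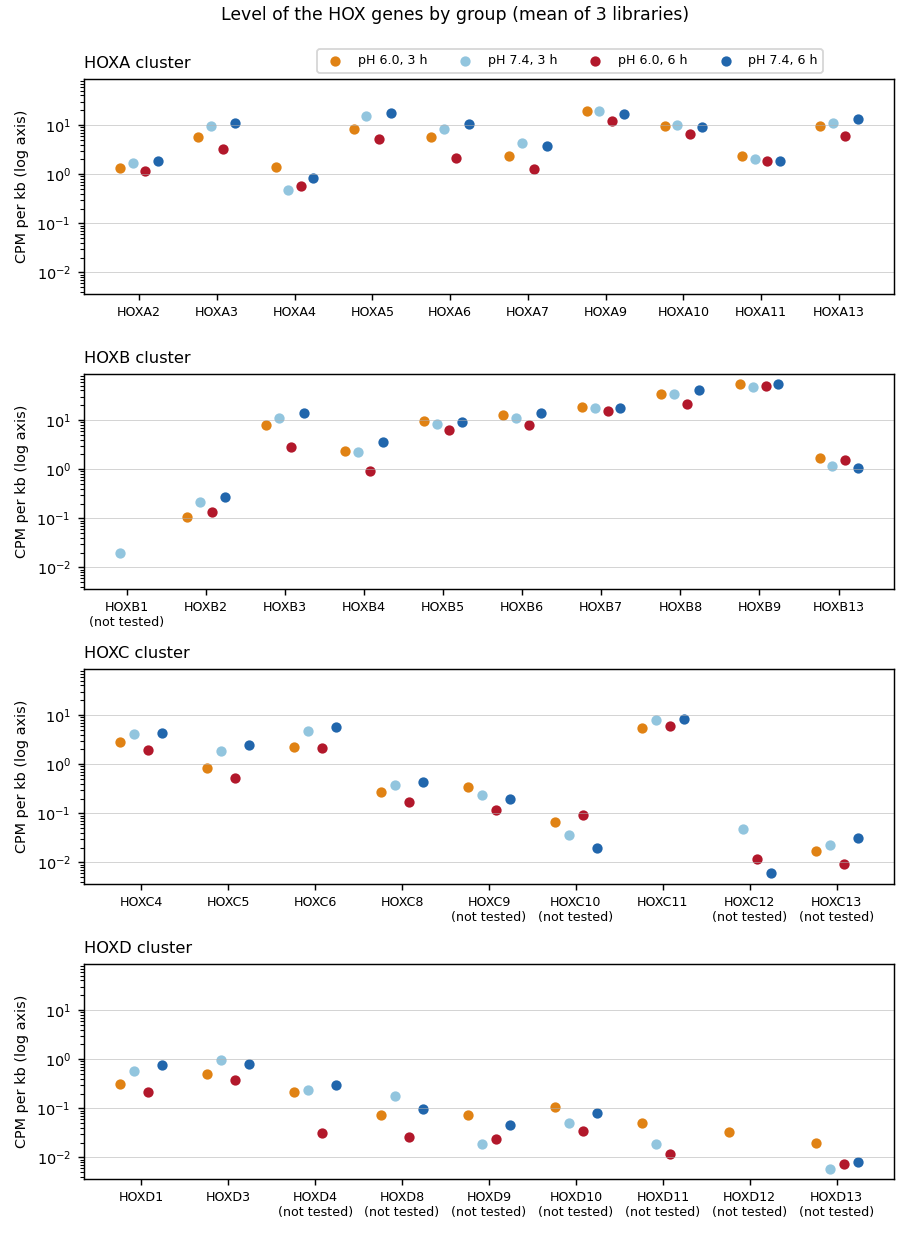
Mean level of the HOX genes, in CPM per kb on a log axis, in the 4 groups (each point is the mean of 3 libraries; colours mark pH and time; group means of 0 are not drawn). Genes run from the 3′ to the 5′ end within each cluster. HOXB9 is the highest gene, and most of HOXD and the genes marked as not tested lie near or below 0.5 CPM per kb.

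Libraries held 13912532 to 24331032 counts. The HOX genes together took 0.0586% to 0.0599% of counts in the pH 6.0 libraries and 0.0580% to 0.0710% in the pH 7.4 libraries at 3 h, and 0.0382% to 0.0437% in the pH 6.0 libraries and 0.0678% to 0.0725% in the pH 7.4 libraries at 6 h. Summed over 12 intestinal epithelial markers, all of them tested, libraries had 10793 to 11014 CPM (pH 6.0, 3 h), 9578 to 10439 CPM (pH 7.4, 3 h), 11414 to 12442 CPM (pH 6.0, 6 h) and 9461 to 9733 CPM (pH 7.4, 6 h), so the labelled epithelial cell type showed its markers. Their sum was thus higher in the pH 6.0 libraries at both times, and its part in the HOX results was not tested. The single markers did not all move alike. At 6 h, 5 of the 12 were called higher at pH 6.0 and 2 lower, against 21.9% and 25.1% of all genes. KRT8 averaged 4521 CPM at pH 6.0 and 2919 CPM at pH 7.4 after 6 h, while CDH1 averaged 738 CPM and 865 CPM. Of 12 fibroblast and muscle markers 5 passed the filter, and the sums over all 12 were 8.73 to 9.95, 10.4 to 13.5, 8.42 to 12.4 and 8.88 to 35.7 CPM in the same order of groups. The value of 35.7 CPM is that of 1 library, library 2 at pH 7.4 after 6 h. COL1A1 stood there at 14 CPM, against 0.233 and 0.73 CPM in libraries 1 and 3. Without library 2 the HOX genes called for pH at 6 h numbered 20, where 6772 of all 15996 genes tested were called. Leukocyte markers (4 of 11 tested) stayed at or under 12.8 CPM and endothelial markers (2 of 7 tested) at or under 13.7 CPM in every library. Nothing in the labels says whether replicate libraries were grown apart, so p-values cover the spread among the sequenced libraries and this spread may be technical only.

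All 4 clusters had a lower summed level in the pH 6.0 libraries than in the pH 7.4 libraries at 6 h, with no overlap between libraries. HOXA summed to 39, 39.2 and 43 CPM per kb at pH 6.0 and 83.6, 90.4 and 87.1 CPM per kb at pH 7.4 after 6 h, a mean 53.5% lower. HOXB summed to 97.9, 103 and 115 CPM per kb at pH 6.0 and 152, 162 and 151 CPM per kb at pH 7.4, a mean 31.8% lower. HOXC summed to 9.53, 11.6 and 11.6 CPM per kb at pH 6.0 and 21.1, 23.5 and 20.3 CPM per kb at pH 7.4, a mean 49.6% lower. The sums of HOXD, the weakest cluster, were 0.815, 0.893 and 0.504 CPM per kb at pH 6.0 and 2.02, 2.13 and 2.12 CPM per kb at pH 7.4, a mean 64.7% lower. HOXB thus lost the smallest share, and within it HOXB9 made up much of the sum. Because these are bulk libraries, fewer cells that express a gene and less RNA of it per cell cannot be told apart.

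At 3 h the HOXA, HOXC and HOXD sums were lower at pH 6.0 with no overlap, while those of HOXB overlapped. HOXA summed to 65.1, 65.9 and 65.9 CPM per kb at pH 6.0 and 83.1, 87.2 and 77 CPM per kb at pH 7.4, and HOXC to 13.1, 11.4 and 12.1 CPM per kb at pH 6.0 and 19.6, 22.5 and 15.6 CPM per kb at pH 7.4. HOXD sums were 1.47, 1.19 and 1.51 CPM per kb at pH 6.0 and 1.96, 2.43 and 1.72 CPM per kb at pH 7.4. HOXB gave 141, 140.4 and 137 CPM per kb at pH 6.0 and 137, 140.4 and 121 CPM per kb at pH 7.4, with means of 139 and 133 CPM per kb. No test is given for these sums, since the family was picked with results known.

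**Figure D2:**
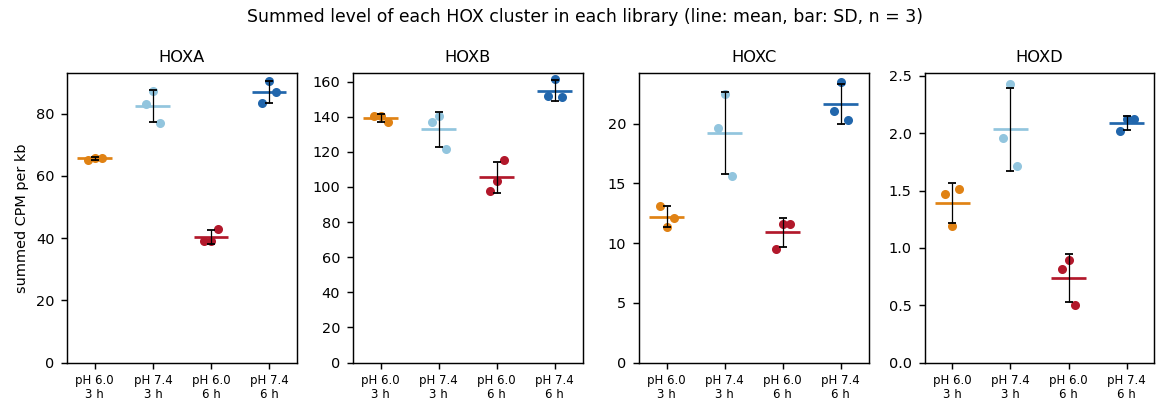
Summed CPM per kb of each HOX cluster in each library (points), with the mean (line) and SD (bar, n = 3), for pH 6.0 and pH 7.4 at 3 h and at 6 h. The pH 6.0 group of 6 h has the lowest mean in every panel, but in HOXC its libraries overlap those at pH 6.0 after 3 h. HOXB at 3 h is the only panel and time where the mean at pH 6.0 exceeds that at pH 7.4.

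Gene by gene, 23 of the 27 tested members passed the test at 6 h (edgeR's quasi-likelihood test, Benjamini-Hochberg adjusted p under 0.05 over all 15630 genes tested), where 47.0% of all genes tested did. Of these, 22 were lower at pH 6.0, against 25.1% of all genes, and 1 was higher, HOXB13, against 21.9% of all genes. The median log2 fold change of the 27 was -1.05, beside -0.000757 over all genes tested, and 14 of the 27 were lower by 2-fold or more. At 3 h 11 members passed, against 18.8% of all genes: 9 were lower, against 9.26% of all genes, and 2 were higher, HOXA4 and HOXB13, against 9.53% of all genes. Their median at 3 h was -0.37, beside -0.00309 over all genes. A filter can favour members that differ, where they pass it only through the group in which they are high. The counts were therefore also taken with no filter over all 39 members. This gave 23 called at 6 h, where 23.9% of all 30685 genes in that fit were called, and 11 at 3 h, where 10.6% were. Those calls were not all of the same genes: without the filter HOXB7 lost its call at 6 h and HOXD4 gained one, and at 3 h HOXB13 lost its call and HOXA6 gained one. These counts describe the family and are no test of it.

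**Figure D3:**
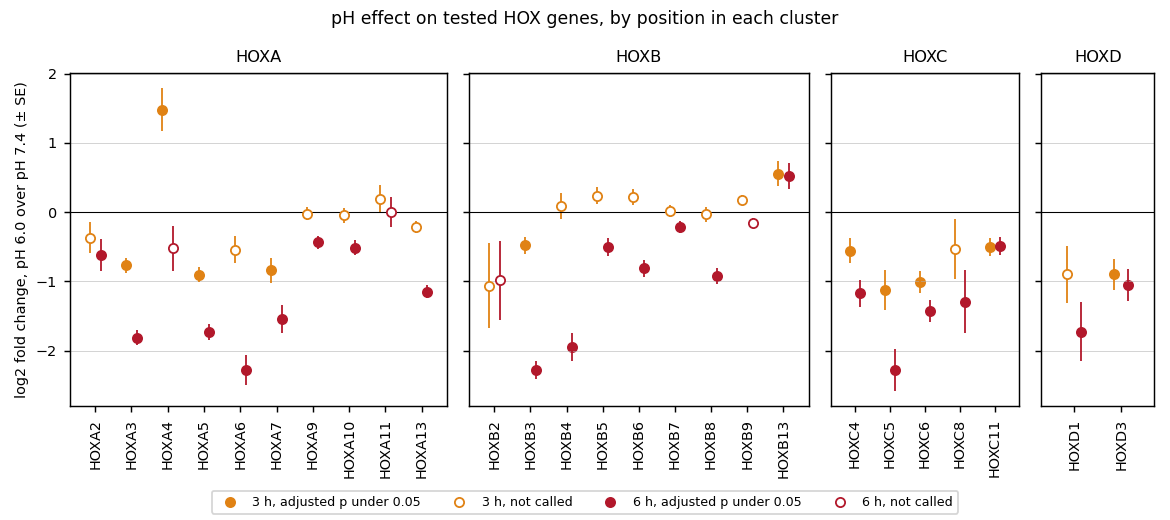
Log2 fold change of pH 6.0 over pH 7.4 (± SE) at 3 h and at 6 h for tested HOX genes, from the 3′ to the 5′ end of each cluster (filled: adjusted p under 0.05; open: not called). At 6 h the points reach -2.28 for HOXA6, HOXB3 and HOXC5, while HOXA11 and HOXB9 lie near 0 and HOXB13 lies above it; HOXA4 stands apart at 3 h with 1.48.

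In the HOXA cluster the largest decreases at 6 h were those of 3′ and middle genes, though not all such genes fell as far. HOXA3, which in mouse is needed for thymus and parathyroid, had 10.3, 9.66 and 11.5 CPM at pH 6.0 and 35.1, 38.7 and 36 CPM at pH 7.4 after 6 h. After 3 h it had 19, 18.2 and 18 CPM at pH 6.0 and 29.7, 35.8 and 28.5 CPM at pH 7.4. It was lower at both times with no overlap between libraries, with log2 fold changes of -1.81 ± 0.11 (adjusted p = 1.48e-11) at 6 h and -0.77 ± 0.11 (adjusted p = 2.39e-05) at 3 h (± SE, as below). HOXA5, a gene of lung and gut development in mouse, had 9.17, 7.79 and 9.42 CPM at pH 6.0 and 25.6, 30.7 and 30.7 CPM at pH 7.4 after 6 h. Its values after 3 h were 13.1, 14.7 and 13.7 CPM at pH 6.0 and 24.2, 26.9 and 26.2 CPM at pH 7.4. Here too the groups were fully apart at both times, at -1.73 ± 0.12 (adjusted p = 6.87e-11) and -0.90 ± 0.11 (adjusted p = 5.67e-06) for 6 h and 3 h. HOXA6, a middle gene of the cluster, had 1.7, 2.28 and 2.46 CPM at pH 6.0 and 8.9, 11.8 and 10.7 CPM at pH 7.4 after 6 h and thus the largest HOXA decrease, -2.28 ± 0.22 (adjusted p = 1.51e-08). After 3 h HOXA6 had 4.26, 5.75 and 6.64 CPM at pH 6.0 and 6.61, 10.1 and 7.46 CPM at pH 7.4, with overlapping libraries and -0.54 ± 0.19 (adjusted p = 0.0507), just short of the threshold. For HOXA7 the values were 2.58, 2.43 and 2.66 CPM at pH 6.0 and 8.49, 8.06 and 5.72 CPM at pH 7.4 after 6 h and 4.42, 4 and 6.01 CPM at pH 6.0 and 9.05, 9.12 and 7.63 CPM at pH 7.4 after 3 h. It was lower at both times, at -1.54 ± 0.20 (adjusted p = 1.51e-06) for 6 h and -0.84 ± 0.18 (adjusted p = 0.00236) for 3 h.

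HOXA4 moved otherwise. After 3 h it had 2.51, 2.24 and 2.5 CPM at pH 6.0 and 1.06, 0.997 and 0.47 CPM at pH 7.4, a higher level in every pH 6.0 library and a log2 fold change of 1.48 ± 0.31 (adjusted p = 0.00186). After 6 h it had 0.951, 0.961 and 1.16 CPM at pH 6.0 and 1.34, 1.77 and 1.28 CPM at pH 7.4, where the pH 6.0 libraries were the lower ones but the test was not passed (-0.52 ± 0.33, adjusted p = 0.197). It is a weak gene, with 300 reads over all 12 libraries. HOXA2, a gene of hindbrain and pharyngeal arch patterning, lay near the 3′ end with a low level. It had 2.17, 2.98 and 2.18 CPM at pH 6.0 and 3.43, 3.92 and 4.08 CPM at pH 7.4 after 6 h (-0.62 ± 0.23, adjusted p = 0.0296) and 2.67, 3.58 and 2.07 CPM at pH 6.0 and 3.54, 4.04 and 3.05 CPM at pH 7.4 after 3 h (-0.37 ± 0.22, adjusted p = 0.268). Its call at 6 h is fragile and was lost under 6 of 20 alternatives.

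Toward the 5′ end of HOXA the changes were smaller, apart from HOXA13. HOXA13, which patterns the hindgut and the limbs, had 24.7, 26.2 and 28.9 CPM at pH 6.0 and 58.6, 57.2 and 60.7 CPM at pH 7.4 after 6 h, fully apart and lower at -1.15 ± 0.09 (adjusted p = 1.07e-09). After 3 h it had 38.4, 44.2 and 42.6 CPM at pH 6.0 and 51.4, 47.7 and 45.7 CPM at pH 7.4, where every pH 6.0 library was below every pH 7.4 library but the test was not passed (-0.21 ± 0.09, adjusted p = 0.0972). HOXA9, known from blood stem cells and leukaemia, had 24, 25.3 and 26.6 CPM at pH 6.0 and 36.4, 33.1 and 33.2 CPM at pH 7.4 after 6 h, lower at -0.44 ± 0.10 (adjusted p = 0.000805). After 3 h its libraries overlapped, with 42.1, 37.5 and 39.1 CPM at pH 6.0 and 41.9, 42.7 and 35.6 CPM at pH 7.4 (-0.02 ± 0.09, adjusted p = 0.91). HOXA10, a gene of uterine development, had 16.9, 14.8 and 17.3 CPM at pH 6.0 and 21.7, 24.7 and 23.2 CPM at pH 7.4 after 6 h (-0.51 ± 0.11, adjusted p = 0.000841) and 25.3, 26.8 and 21.3 CPM at pH 6.0 and 27.8, 23.3 and 24.4 CPM at pH 7.4 after 3 h (-0.04 ± 0.11, adjusted p = 0.822). HOXA11, its neighbour with roles in limb and uterus, averaged 4.18 ± 0.337 CPM at pH 6.0 and 4.19 ± 0.173 CPM at pH 7.4 after 6 h (SD, n = 3 each), a log2 fold change of 0.00 ± 0.22 (adjusted p = 0.995). At 3 h it was at 0.19 ± 0.20 (adjusted p = 0.561).

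The letters before the start sites of a few members are shown so that genes that moved differently can be set side by side. RefSeq start sites (GRCh38.p14; the counts were made on another build, hg19) gave windows for 20 of the 39 members, 27 windows in all, from 250 bases before to 50 after a start. The 250 upstream bases are printed 5′ to 3′ on the gene's own strand for HOXA6 (chr7:27147775-27148024, minus strand), which had the largest fall in HOXA, for the HOXA3 start with the most caudal matches (chr7:27152584-27152833, minus strand), for HOXA4 (chr7:27130758-27131007, minus strand), which was higher at 3 h, for HOXA9 (chr7:27165538-27165787, minus strand), which was lower by less at 6 h, and for a start that HOXC4 and HOXC5 share (chr12:54016638-54016887, plus strand). Capitals mark 2 motifs searched on both strands, the E-box CACGTG and the caudal-type word TTTATG with its reverse complement CATAAA. The HOXA3 start was picked by its matches and does not stand for the other HOXA3 starts. It was the only HOXA3 start with a caudal match, and it lies upstream of the HOXA6 start printed here.
HOXA6: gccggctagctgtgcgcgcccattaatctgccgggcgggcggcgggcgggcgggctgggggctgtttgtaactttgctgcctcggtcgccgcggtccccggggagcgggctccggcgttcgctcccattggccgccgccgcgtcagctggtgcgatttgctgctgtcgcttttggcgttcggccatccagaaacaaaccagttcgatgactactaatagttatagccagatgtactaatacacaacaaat
HOXA3: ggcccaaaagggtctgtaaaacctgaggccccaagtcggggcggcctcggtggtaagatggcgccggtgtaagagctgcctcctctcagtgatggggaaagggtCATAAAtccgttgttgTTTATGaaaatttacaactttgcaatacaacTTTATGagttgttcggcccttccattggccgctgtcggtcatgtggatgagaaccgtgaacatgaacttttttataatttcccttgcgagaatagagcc
HOXA4: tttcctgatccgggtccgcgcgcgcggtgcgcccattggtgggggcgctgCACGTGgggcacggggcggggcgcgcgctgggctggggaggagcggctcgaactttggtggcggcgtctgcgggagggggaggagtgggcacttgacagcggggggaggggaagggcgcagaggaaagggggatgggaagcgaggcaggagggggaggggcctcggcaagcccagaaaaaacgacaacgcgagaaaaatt
HOXA9: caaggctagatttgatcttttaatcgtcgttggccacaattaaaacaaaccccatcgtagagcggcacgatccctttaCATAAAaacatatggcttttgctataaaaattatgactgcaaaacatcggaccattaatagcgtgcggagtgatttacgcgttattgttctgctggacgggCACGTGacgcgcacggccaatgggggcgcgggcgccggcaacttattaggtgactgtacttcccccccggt
HOXC4 and HOXC5: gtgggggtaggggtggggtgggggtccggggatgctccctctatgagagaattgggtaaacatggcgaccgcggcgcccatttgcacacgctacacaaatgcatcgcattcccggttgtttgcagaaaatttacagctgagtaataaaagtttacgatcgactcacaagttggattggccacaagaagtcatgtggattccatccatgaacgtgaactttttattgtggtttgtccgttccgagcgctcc

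Over the whole 300 bases, CACGTG stood in 9 of the 27 HOX windows (33.3%), against 7.26% of all 35116 windows in the table, and in at least 1 window of HOXA3, HOXA4, HOXA7, HOXA9, HOXD1, HOXD3, HOXD10, HOXD11 and HOXD13. That set holds genes that were lower (HOXA7, HOXD1), a gene that was higher at 3 h (HOXA4) and genes with scattered reads (HOXD11, HOXD13). TTTATG stood in 3 HOX windows (11.1%), against 10.6% of all. TGACGTCA, the cAMP response element, and TGANTCA, the AP-1 element, stood in none, against 1.85% and 7.71% of all windows. The marked matches do not overlap one another in the printed windows. A match describes letters in a window and shows no binding. The windows cover mainly HOXA and HOXD. Of HOXB only HOXB1, which was not expressed, had a window, and of HOXC only HOXC4 and HOXC5, whose shared start is counted for both. Several windows belong to HOXA3. The shares thus do not describe the family as a whole.

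The HOXB cluster held the strongest expression, and its decreases at 6 h tended to be larger toward the 3′ end, though in no strict order. HOXB3, near its 3′ end, had 9.58, 11.9 and 13.9 CPM at pH 6.0 and 55.1, 58.2 and 59.1 CPM at pH 7.4 after 6 h, the largest decrease of the cluster at -2.28 ± 0.13 (adjusted p = 5.68e-12). After 3 h HOXB3 had 31.6, 34.9 and 33.8 CPM at pH 6.0 and 40.4, 56.5 and 42.7 CPM at pH 7.4 and was already lower (-0.48 ± 0.12, adjusted p = 0.00775). No pH 6.0 library reached a pH 7.4 library at either time. HOXB4, a factor that expands blood stem cells, had 3.13, 3.13 and 4.03 CPM at pH 6.0 and 12.9, 14.9 and 11.9 CPM at pH 7.4 after 6 h (-1.95 ± 0.20, adjusted p = 7.8e-08). After 3 h its libraries overlapped, with 9.06, 7.86 and 9.7 CPM at pH 6.0 and 6.61, 11.7 and 6.81 CPM at pH 7.4 (0.09 ± 0.18, adjusted p = 0.777). HOXB4 was therefore among the most reduced members at 6 h without a called difference at 3 h. HOXB8, known for blocking myeloid differentiation, had 34.2, 38.1 and 45.2 CPM at pH 6.0 and 77.3, 78.9 and 66.2 CPM at pH 7.4 after 6 h (-0.92 ± 0.11, adjusted p = 4.91e-07) and 62.1, 61.7 and 58.3 CPM at pH 6.0 and 69.6, 63.5 and 52.4 CPM at pH 7.4 after 3 h (-0.03 ± 0.11, adjusted p = 0.88). HOXB6 had 26.4, 28.9 and 26.7 CPM at pH 6.0 and 41.8, 55.8 and 46.4 CPM at pH 7.4 after 6 h, lower at -0.81 ± 0.12 (adjusted p = 9.75e-06). After 3 h it had 40.4, 43.1 and 45.6 CPM at pH 6.0 and 34.4, 44.7 and 31.9 CPM at pH 7.4 and did not pass (0.22 ± 0.12, adjusted p = 0.205).

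HOXB5 and HOXB7 moved less. HOXB5, which takes part in forming the enteric nervous system, had 10.5, 12.6 and 15.6 CPM at pH 6.0 and 17.1, 18.1 and 19.8 CPM at pH 7.4 after 6 h (-0.51 ± 0.13, adjusted p = 0.00269) and 19, 20.3 and 20 CPM at pH 6.0 and 16.9, 18.4 and 14.9 CPM at pH 7.4 after 3 h (0.24 ± 0.13, adjusted p = 0.194). HOXB7 had 58.4, 55.8 and 63.5 CPM at pH 6.0 and 69.1, 72 and 65 CPM at pH 7.4 after 6 h and passed narrowly (-0.22 ± 0.09, adjusted p = 0.0451), a call lost under 16 of 21 alternatives. Its values after 3 h, 76.9, 65.8 and 70.6 CPM at pH 6.0 and 74.1, 72.3 and 64.7 CPM at pH 7.4, overlapped (0.02 ± 0.09, adjusted p = 0.922). HOXB9, the strongest member, had 126, 131 and 143 CPM at pH 6.0 and 144, 150.3 and 153 CPM at pH 7.4 after 6 h. Every pH 6.0 library lay below every pH 7.4 library, yet the difference was small and not called (-0.16 ± 0.07, adjusted p = 0.0758). After 3 h HOXB9 had 146, 149 and 139.5 CPM at pH 6.0 and 131, 128 and 126 CPM at pH 7.4, with the pH 6.0 libraries on the higher side (0.18 ± 0.07, adjusted p = 0.0947). HOXB2, weakly expressed, averaged 0.356 ± 0.0921 CPM at pH 6.0 and 0.723 ± 0.119 CPM at pH 7.4 after 6 h (-0.98 ± 0.57, adjusted p = 0.165) and 0.281 ± 0.282 CPM and 0.572 ± 0.0669 CPM at the same pH values after 3 h (-1.06 ± 0.61, adjusted p = 0.236).

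HOXB13, the 5′ gene set apart from the rest of the cluster and expressed in prostate and distal gut, was the only member called higher at both times. It had 5.37, 5.76 and 4.71 CPM at pH 6.0 and 4.07, 3.76 and 3.22 CPM at pH 7.4 after 6 h. After 3 h it had 6.6, 6.033 and 5.13 CPM at pH 6.0 and 4.49, 4.24 and 3.29 CPM at pH 7.4. The groups did not overlap at either time, and the log2 fold changes were 0.52 ± 0.19 (adjusted p = 0.0243) at 6 h and 0.56 ± 0.18 (adjusted p = 0.0327) at 3 h. Both calls are near the threshold: 3 of 21 alternatives lost the one at 6 h and 7 of 21 the one at 3 h.

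**Figure D4:**
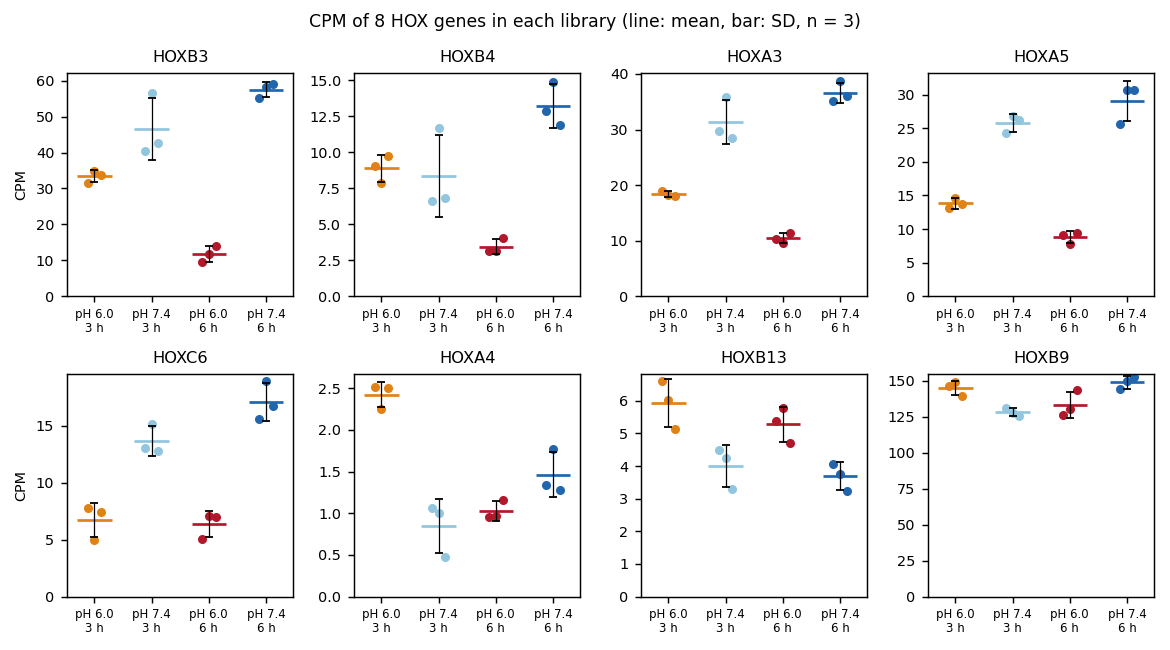
CPM of 8 HOX genes in each library (points) with the mean (line) and SD (bar, n = 3), for pH 6.0 and pH 7.4 at 3 h and at 6 h. HOXB3, HOXB4, HOXA3, HOXA5 and HOXC6 are lowest or near lowest at pH 6.0 after 6 h, HOXA4 peaks at pH 6.0 after 3 h, HOXB13 is higher at pH 6.0 at both times, and HOXB9 varies little.

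All 5 tested HOXC genes were lower at 6 h, and 4 of them at 3 h. HOXC5 had 0.679, 0.809 and 1.3 CPM at pH 6.0 and 4.65, 4.94 and 3.83 CPM at pH 7.4 after 6 h, one of the 3 largest decreases of the family (-2.28 ± 0.30, adjusted p = 2.44e-06). After 3 h it had 1.69, 1.19 and 1.63 CPM at pH 6.0 and 2.48, 4.79 and 2.7 CPM at pH 7.4 (-1.12 ± 0.29, adjusted p = 0.00855), again without overlap. HOXC6 had 5.03, 7.08 and 6.96 CPM at pH 6.0 and 15.6, 18.9 and 16.8 CPM at pH 7.4 after 6 h (-1.42 ± 0.16, adjusted p = 2.34e-07). Its values after 3 h were 7.75, 4.98 and 7.45 CPM at pH 6.0 and 13.1, 15.2 and 12.8 CPM at pH 7.4 (-1.01 ± 0.16, adjusted p = 0.000131). At pH 6.0 HOXC6 was thus about as low at 3 h as at 6 h. HOXC4 had 2.58, 3.79 and 3.14 CPM at pH 6.0 and 6.92, 7.57 and 7.18 CPM at pH 7.4 after 6 h (-1.17 ± 0.20, adjusted p = 4.66e-05) and 5.73, 3.72 and 4.76 CPM at pH 6.0 and 7.08, 8.28 and 5.58 CPM at pH 7.4 after 3 h. Its call at 3 h (-0.55 ± 0.19, adjusted p = 0.0421), with overlapping libraries, was lost under 12 of 21 alternatives. HOXC8, a gene of thoracic patterning, had 0.34, 0.91 and 0.478 CPM at pH 6.0 and 1.45, 1.4 and 1.58 CPM at pH 7.4 after 6 h (-1.29 ± 0.46, adjusted p = 0.0231) and 0.382, 1.61 and 0.751 CPM at pH 6.0 and 1.06, 1.79 and 0.998 CPM at pH 7.4 after 3 h (-0.53 ± 0.43, adjusted p = 0.414). Its call at 6 h was lost under 3 of 20 alternatives, each of which left out a single 6 h library (library 3 at pH 7.4, library 1 or library 3 at pH 6.0). HOXC11, the expressed 5′ gene of the cluster, had 18.1, 19.6 and 20.3 CPM at pH 6.0 and 27.3, 29.6 and 24.5 CPM at pH 7.4 after 6 h (-0.49 ± 0.13, adjusted p = 0.00318) and 18.8, 18.9 and 16.7 CPM at pH 6.0 and 28.8, 28.5 and 19.4 CPM at pH 7.4 after 3 h (-0.50 ± 0.13, adjusted p = 0.00857). The 3 h call of HOXC11 was lost without library 1 at pH 7.4 or library 3 at pH 6.0 of that time, and that of HOXC5 without library 2 at pH 7.4.

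Of the HOXD cluster 2 genes could be tested, HOXD1 and HOXD3, both at the 3′ end. HOXD3 had 1.29, 2.12 and 1.43 CPM at pH 6.0 and 3.2, 3.28 and 3.77 CPM at pH 7.4 after 6 h and 2.02, 2.46 and 1.94 CPM at pH 6.0 and 3.58, 4.29 and 4.05 CPM at pH 7.4 after 3 h. It was lower at both times, at -1.05 ± 0.24 (adjusted p = 0.000896) for 6 h and -0.89 ± 0.22 (adjusted p = 0.00763) for 3 h. HOXD1 had 0.543, 0.657 and 0.136 CPM at pH 6.0 and 1.28, 2.04 and 1.28 CPM at pH 7.4 after 6 h (-1.72 ± 0.43, adjusted p = 0.00205) and 0.709, 0.631 and 0.563 CPM at pH 6.0 and 1.18, 1.5 and 0.881 CPM at pH 7.4 after 3 h (-0.90 ± 0.41, adjusted p = 0.13). Libraries of the 2 pH values did not overlap for either gene at either time.

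Position along the clusters was compared with the size of the change. At 6 h the 20 tested genes of paralogue groups 1 to 8 had a median log2 fold change of -1.36, with 18 lower and 0 higher. The 7 of groups 9 to 13 had a median of -0.44, with 4 lower and 1 higher. Over all genes tested the median was -0.000757, with 25.1% lower and 21.9% higher. Spearman's correlation between paralogue number and log2 fold change at 6 h was 0.56 over the 27 genes, 0.83 over the 9 HOXB genes, 0.52 over the 11 HOXA genes and 0.40 over the 5 HOXC genes. At 3 h it was 0.37 over the 27 genes, 0.60 in HOXB, 0.17 in HOXA and 0.70 in HOXC. Against the mean level in CPM the correlation at 6 h was 0.23. These correlations are across genes of the same 12 libraries, which are not independent, so no p is given.

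The pH effect was also compared between the times, as the interaction in the same fit. A difference passed for 14 of the 27 members, against 29.4% of all genes tested, and in all 14 it was negative, against 16.3% of all genes; 0 were positive, against 13.1%. With no filter the count was 11 of 39, against 14.7% of all genes in that fit. The largest were HOXB4 at -2.04 ± 0.28 (adjusted p = 2.05e-05), HOXA4 at -2.00 ± 0.45 (adjusted p = 0.0022), HOXB3 at -1.81 ± 0.18 (adjusted p = 5.11e-07) and HOXA6 at -1.74 ± 0.29 (adjusted p = 0.000189) (6 h minus 3 h, log2). Smaller ones were found for HOXC5, HOXA3, HOXB6, HOXA13, HOXB8, HOXA5, HOXB5, HOXA10, HOXA9 and HOXB9, of which HOXC5 and HOXA10 lost the call under 10 of 19 and 10 of 20 alternatives, and HOXA9 and HOXB9 under 7 and 6 of 20. The median over the 27 was -0.75, beside -0.03 over all genes. For HOXC6 (-0.41 ± 0.23, adjusted p = 0.187), HOXC11 (0.01 ± 0.18, adjusted p = 0.967), HOXD3 (-0.16 ± 0.33, adjusted p = 0.767) and HOXB13 (-0.03 ± 0.26, adjusted p = 0.941) the difference between the times was not called.

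Time within each pH was the remaining pair of comparisons, and it uses the same libraries as the pH comparisons, so agreement with them is not read as support. At pH 6.0, 14 members were lower at 6 h than at 3 h, against 10.9% of all genes, and 0 were higher, against 8.64%; 19.5% of all genes were called in either direction. These were HOXA3, HOXA4, HOXA5, HOXA6, HOXA7, HOXA9, HOXA10 and HOXA13, and HOXB3 to HOXB8. The call of HOXB7 was lost under 10 of 21 alternatives. HOXB3 was at -1.5 ± 0.13 (adjusted p = 2.35e-08), HOXB4 at -1.38 ± 0.21 (adjusted p = 5.43e-05) and HOXA6 at -1.36 ± 0.23 (adjusted p = 0.000175). HOXC6 was at -0.09 ± 0.17 (adjusted p = 0.773) and none of the HOXC and HOXD genes was called. The median of the 27 was -0.62, beside -0.02 over all genes. At pH 7.4, 5 of the 27 members (18.5%) were higher at 6 h than at 3 h, a share near the 17.2% of all genes, and 0 were lower, against 14.4%. In either direction 31.6% of all genes were called, so this count is no result about the family. They were HOXB4 at 0.66 ± 0.18 (adjusted p = 0.00724), HOXB6 at 0.38 ± 0.12 (adjusted p = 0.0172), HOXA13 at 0.28 ± 0.09 (adjusted p = 0.0165), HOXB9 at 0.22 ± 0.07 (adjusted p = 0.0263) and HOXB3 at 0.30 ± 0.12 (adjusted p = 0.0496). Libraries of the 2 times overlapped for HOXB3 and HOXB6, and the call of HOXB3 was lost under 15 of 21 alternatives. The count at pH 7.4 is unstable, and with a library left out 3309 to 5211 genes were called in all. Without the 3 h library 3 at pH 7.4, 0 members were higher and 1 was lower (HOXA9). Without 3 h library 2 at pH 7.4, 8 were higher. The number higher was 3 without 3 h library 1 or 6 h library 3 at pH 7.4, and 2 without 6 h library 2 at pH 7.4. Scaling by total counts alone gave 1 higher (HOXB4) and 1 lower (HOXA9).

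RNAs made within the clusters that encode no HOX protein were mostly lower at 6 h. Of 18 listed non-coding RNAs 11 passed the filter, and at 6 h 7 of these were lower and 0 higher, against 25.1% and 21.9% of all genes, with a median log2 fold change of -1.29. HOXB-AS2 had 1.36, 0.91 and 0.955 CPM at pH 6.0 and 6.16, 9.08 and 8.64 CPM at pH 7.4 after 6 h, lower at -2.90 ± 0.31 (adjusted p = 2.38e-07). HOXB-AS4 was at -2.00 ± 0.20 (adjusted p = 4.98e-08), HOXA-AS2 at -1.88 ± 0.19 (adjusted p = 4.82e-08) and HOXA-AS3 at -1.78 ± 0.19 (adjusted p = 1.21e-07). HOXA10-AS was at -1.74 ± 0.38 (adjusted p = 0.000881), HOXB-AS3 at -1.29 ± 0.26 (adjusted p = 0.00161) and HOTAIR, which is transcribed from HOXC and is known for binding chromatin-modifying complexes, at -0.82 ± 0.21 (adjusted p = 0.00263). HOTAIR had 3.13, 2.83 and 4.3 CPM at pH 6.0 and 7.09, 5.86 and 5.05 CPM at pH 7.4 after 6 h. HOTTIP, made next to HOXA13, had 5.37, 4.9 and 5.66 CPM at pH 6.0 and 3.95, 5.26 and 4.5 CPM at pH 7.4 after 6 h, a difference of 0.21 ± 0.17 (adjusted p = 0.333) beside a fall of its neighbour HOXA13. HAGLR (-0.19 ± 0.12, adjusted p = 0.22), HOXA11-AS (-0.07 ± 0.20, adjusted p = 0.788) and HOTAIRM1 (-0.83 ± 0.45, adjusted p = 0.137) were not called either. At 3 h HOXA-AS2 was the only one called, at -0.67 ± 0.18 (adjusted p = 0.0102).

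**Figure D5:**
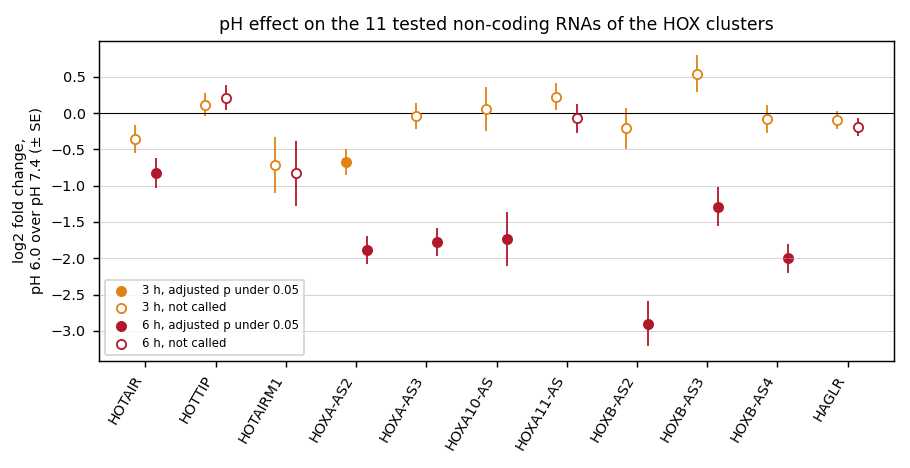
Log2 fold change of pH 6.0 over pH 7.4 (± SE) at 3 h and at 6 h for the 11 tested non-coding RNAs of the HOX clusters (filled: adjusted p under 0.05; open: not called). At 6 h 7 of them are called lower, down to -2.90 for HOXB-AS2, while at 3 h HOXA-AS2 is the only one called.

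Many of these RNAs overlap HOX exons, and whether the counting used strand is not given in the sources used here, so reads of a gene and its antisense partner cannot be told apart. In GENCODE 29, HOXA-AS2 covers 14.5% of the exon bases of HOXA4 and 8.69% of those of HOXA3, HOXA-AS3 covers 62.5% of the exon bases of HOXA7 and 39.3% of those of HOXA6, HOXA11-AS 31.1% of HOXA11, HOXA10-AS 16.4% of HOXA10 and HOXB-AS3 16.3% of HOXB6. On the same strand, HOXB3 shares 433 exon bases with HOXB6 and 159 with HOXB4, and HOXC4 shares 484 with HOXC6. HOXD10 shares 452 with HOXD11, and a protein-coding gene listed as AC004080.3 shares 397 with HOXA9 and 368 with HOXA10. The counts of such genes may include each other's reads. HOXA5, HOXA13 and HOXB8, all lower at 6 h, overlap other genes of the table in under 2% of their exon bases. With genes that share no exon with it, a member had at most 1.63% of its 50-base words in common (HOXB7, with HOXB6 among the matches). The words came from GENCODE 29 transcripts. For HOXB7 they numbered 1472, beside a gene length of 3929 bases behind the RPKM values, so counted sequence outside those transcripts was not checked.

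The table held 29 other genes between the outermost HOX genes of the clusters, the listed RNAs among them, and 17 were tested. At 6 h 12 of the 17 were lower and 1 was higher, against 25.1% and 21.9% of all genes, with a median of -1.74. The one that rose was LINC02086, a non-coding RNA of the HOXB span, at 0.43 ± 0.09 (adjusted p = 0.000479). The largest decrease was that of a non-coding RNA of HOXC listed as ENSG00000260597, which averaged 1.01 CPM at pH 6.0 and 12 CPM at pH 7.4 after 6 h (-3.51 ± 0.38, adjusted p = 2.83e-06). Of 12 genes listed as lying just outside the clusters 8 were tested. Of these, 4 were higher at 6 h and 0 lower: HIBADH (0.55 ± 0.09, adjusted p = 3.02e-05), MTX2 (0.37 ± 0.09, adjusted p = 0.00158), SKAP2 (0.36 ± 0.10, adjusted p = 0.00704) and LNPK (0.26 ± 0.09, adjusted p = 0.0151). The 4 of 8 compare with 47.0% of all genes called and 21.9% called higher at 6 h, and the median of the 8 was 0.31. LNPK was also higher at 3 h (0.28 ± 0.09, adjusted p = 0.0275).

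Of the caudal factors upstream of the clusters, CDX2 was higher at pH 6.0 after 3 h and CDX1 was not called. CDX2, a master regulator of intestinal identity, had 279, 300.1 and 284 CPM at pH 6.0 and 179.5, 154 and 180.0 CPM at pH 7.4 after 3 h (0.75 ± 0.09, adjusted p = 3.06e-06). After 6 h it had 96.5, 99.6 and 121 CPM at pH 6.0 and 97.6, 105 and 95.8 CPM at pH 7.4, overlapping values at about the same level (0.09 ± 0.09, adjusted p = 0.441). CDX2 was lower at 6 h than at 3 h at pH 6.0 (-1.44 ± 0.09, adjusted p = 6.74e-11) and at pH 7.4 (-0.78 ± 0.09, adjusted p = 1.06e-06). CDX1 had 85.8, 93.7 and 86.3 CPM at pH 6.0 and 75.4, 88.5 and 70.1 CPM at pH 7.4 after 6 h (0.18 ± 0.09, adjusted p = 0.11), and 95.9, 83.6 and 90.3 CPM at pH 6.0 and 102, 85.4 and 92.4 CPM at pH 7.4 after 3 h (-0.05 ± 0.09, adjusted p = 0.734). Of 6 tested TALE cofactors, 1 was higher at 6 h and 0 were lower, against 47.0% of all genes called: PBX3 (0.34 ± 0.13, adjusted p = 0.0411).

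In the retinoic acid pathway 10 of 16 listed genes were tested, with 1 higher and 1 lower at 3 h and 2 higher and 2 lower at 6 h. The shares called, 20% at 3 h and 40% at 6 h, lie near the 18.8% and 47.0% of all genes. CYP26A1, which breaks down retinoic acid and is itself a retinoic acid target, had 2.17, 2.38 and 2.25 CPM at pH 6.0 and 0.407, 0.537 and 0.183 CPM at pH 7.4 after 6 h (2.55 ± 0.37, adjusted p = 6.71e-06), and it was higher at 3 h (1.34 ± 0.27, adjusted p = 0.00134). ALDH1A1, which makes retinoic acid, was higher at 6 h (0.68 ± 0.09, adjusted p = 3.02e-06). RDH10, which supplies its precursor, was lower at 6 h (-0.58 ± 0.11, adjusted p = 0.000147), as was the receptor RXRB at 6 h (-0.23 ± 0.08, adjusted p = 0.0218) and at 3 h (-0.40 ± 0.08, adjusted p = 0.00108).

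Among 29 tested Polycomb genes, 3 were higher and 10 lower at 6 h, and 2 higher and 4 lower at 3 h, with medians of -0.04 and 0.04. That is 44.8% called at 6 h and 20.7% at 3 h, near the 47.0% and 18.8% of all genes. The named ones at 6 h were RBBP7 (0.49 ± 0.08, adjusted p = 1.63e-05) and RBBP4 (0.50 ± 0.09, adjusted p = 6.73e-05), histone-binding subunits, EED (-0.62 ± 0.11, adjusted p = 5.65e-05), a core subunit of the complex that methylates histone H3, and PCGF3 (-0.44 ± 0.09, adjusted p = 0.000251). At 3 h they were CBX8 (-0.83 ± 0.13, adjusted p = 7.57e-05), PHC2 (-0.40 ± 0.08, adjusted p = 0.00138), JARID2 (0.45 ± 0.10, adjusted p = 0.0048) and EED (-0.41 ± 0.10, adjusted p = 0.0073). Of 11 tested Trithorax genes, 2 were higher and 5 lower at 6 h, and 1 was higher and 1 lower at 3 h, or 63.6% called at 6 h, against 47.0% of all genes, and 18.2% at 3 h, against 18.8%. WDR5, a shared subunit of the histone H3 methyltransferase complexes, was lower at 6 h (-0.65 ± 0.08, adjusted p = 1.37e-06) and at 3 h (-0.57 ± 0.08, adjusted p = 4.82e-05). DOT1L (-0.64 ± 0.10, adjusted p = 1.01e-05) and HCFC1 (-0.37 ± 0.09, adjusted p = 0.00189) were lower at 6 h, DPY30 was higher at 6 h (0.50 ± 0.11, adjusted p = 0.000781), and KDM6B was higher at 3 h (0.25 ± 0.08, adjusted p = 0.0401). No called gene of either list reached a 2-fold difference between the pH values at either time. Whether the change of any of these regulators bears on the HOX genes was not tested.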

How the data were processed

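Total RNA of 12 libraries of T84 cells in 4 groups of 3 was sequenced by the submitters. STAR, CASAVA and the hg19 build are named, per the submitters' processing notes; tool versions, annotation, counter and strand setting: not given in the sources used here. The deposited tables hold, for 48162 Ensembl identifiers, read counts made by the authors and RPKM values made by the authors from them. The RPKM values served only to recover gene lengths, which reproduced 100.0% of them within a relative tolerance of 1e-06. All tests used the deposited counts.

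Symbols came from the names table given and from GENCODE 29 (45342 identifiers matched), and exon overlaps from GENCODE 29 on GRCh38. Counts were fitted over the whole table with edgeR 4.0.16 in R 4.3.3: TMM factors, default filter (15630 genes), 1 fit of all 12 libraries by group with 8 residual degrees of freedom, robust quasi-likelihood F tests and Benjamini-Hochberg adjustment over all genes tested, with adjusted p under 0.05 called. The standard error is the log2 fold change divided by the square root of F. The common biological coefficient of variation was 9.29%. Replicates differed beyond sampling noise, with chi-square per degree of freedom of 5.40 to 19.5, so all 12 libraries were used as separate samples. The procedure was tested on simulated counts.

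The members, lists and tests were chosen with earlier results of these data known. Every member is accounted for, members called in any contrast have their values given, apart from the exception below, and of each companion list up to 4 called genes with the smallest p are named per time, besides CDX1, CDX2 and the non-coding RNAs of the clusters; the genes of the cluster spans were added after the data were seen. The symbols PECAM1, PCGF2 and KMT2B matched no identifier in the lists. Alternatives were DESeq2 1.42.0, total counts or median-of-ratios factors for scaling, the filter dropped or set at 5 CPM in 3 libraries, a fit to the compared groups, the replicate number as a block, a length trend, a minimum fold change of 1.2 in the test, and leaving out single libraries. Of the listed genes, 1 HOX member and 1 TALE cofactor are not reported here by name or drawn in the figures, while counts, medians and sums over the lists include them.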

Additional observations from a re-analysis of the deposited data

Results flagged for a closer look

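For 14 HOX genes the pH effect after 6 h differed from that after 3 h by the interaction test of the edgeR fit (adjusted p under 0.05), which is what put them here. The difference, pH effect at 6 h minus pH effect at 3 h on the log2 scale, was -2.04 for HOXB4, -2.00 for HOXA4, -1.81 for HOXB3 and -1.74 for HOXA6. It was -1.15 for HOXC5, -1.04 for HOXA3 and -1.03 for HOXB6. For HOXA13, HOXB8, HOXA5 and HOXB5 it was -0.93, -0.89, -0.83 and -0.75 in that order. The smallest were -0.47 for HOXA10, -0.42 for HOXA9 and -0.34 for HOXB9. HOXA4 is the only one of these genes that was called higher at pH 6.0 at 3 h. Groups of 3 libraries are too small for a check of single libraries that stand apart.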

How the results depend on the processing

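No HOX gene called in a comparison changed direction under any alternative run. At 6 h the number of HOX genes called stayed between 16 (filter of 5 CPM, which leaves 19 members tested) and 24 (total counts). Over all genes, 6436 of 10907 and 7276 of 15630 were called under these settings. Leaving out a library gave 19 to 23 HOX genes, beside 6203 to 7566 genes in all. At 3 h the number of HOX genes called fell to 7 with the test against a fold change of 1.2, where 700 of all 15630 genes were called. Leaving out a library gave 9 to 11, beside 1648 to 3617 genes in all. For time at pH 6.0 leaving out a library gave 13 to 15 HOX genes, beside 1915 to 3408 genes in all. For the interaction it gave 10 to 14, beside 3457 to 5136 genes in all. For time at pH 7.4, with 5 called, the number of HOX genes was 9 with the length trend and 3 with no filter. It was 1 with the test against a fold change of 1.2 and 2 with total counts. In the same order, 4133 of 15630, 4923 of 30685, 1666 of 15630 and 5272 of 15630 genes were called in all. Leaving out a library gave 1 to 8 HOX genes, beside 3309 to 5211 genes in all. The cause of these moves was not tested, apart from the stricter question of the fold test. Total counts alone moved the median log2 fold change of all genes for time at pH 6.0 to -0.10, and put the summed level of the 3 h libraries at pH 6.0 at 66.7 CPM per kb for HOXA and 142 CPM per kb for HOXB. The number of expressed members was 25 with each library left out. With the replicate number as a block, 12 members were called for pH at 3 h, 23 for pH at 6 h, 5 and 14 for time at pH 7.4 and 6.0, and 14 for the interaction; same-numbered libraries did not deviate together in every pair of groups (correlations from -0.13 to 0.23), so the numbers were not taken to pair libraries, and the block changed no call but that of HOXA6 at 3 h. With that block 3231, 7457, 5115, 3289 and 4774 of all 15630 genes were called in the same order of comparisons. Genes near the filter, such as HOXB2 and HOXC8, are limited by depth.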
